A study of Mus musculus with 6 samples.

Results

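The proteasome is the protease that breaks down proteins tagged with ubiquitin. Its genes were taken from the deposited gene table by name, as every protein-coding gene whose symbol is Psma, Psmb, Psmc, Psmd, Psme or Psmg followed by a digit, with pseudogenes left out. This gave 49 of the 55487 genes in the table, and 47 of the 49 had enough counts to be tested. RNA had been sequenced from primitive macrophages, the first macrophages of the embryo and the precursors of microglia, grown from mouse embryonic stem cells (ESCs) over 12 days. The inducing factors were M-CSF, IL-3, SCF and VEGF together with activin A, BMP-4 and FGF2. The stem cells came either from wild-type mice (3 libraries) or from Ts1Cje mice (3 libraries), a Down syndrome model with an extra copy of a distal segment of chromosome 16 attached to chromosome 12, which has lost a small piece at its end. In this model the segment starts at a Sod1 copy disrupted by gene targeting. The culture was the same for both genotypes, and the study asked why Ts1Cje embryos have fewer microglia. The replicates carry lot numbers. The series text calls them different cells, but the labels do not tell whether a lot is a stem cell line or a repeat differentiation of one, so the spread behind each p-value may be technical. Values of a group are given in the order of replicates 1, 2 and 3.

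The 20S core of the proteasome is a barrel of alpha rings outside and beta rings inside, and 3 of its beta subunits (Psmb5, Psmb6 and Psmb7) cut proteins. The 19S cap binds the barrel, recognises ubiquitin, removes it and threads the substrate inward with a ring of ATPases (Psmc genes) and a set of scaffold, receptor and lid subunits (Psmd genes). Interferon exchanges the cutting subunits for Psmb8, Psmb9 and Psmb10 and raises the activator made of Psme1 and Psme2; this immunoproteasome makes peptides for MHC class I and is a usual part of macrophages. The Psmg proteins are chaperones that build the core, of which Psmg1 and Psmg2 act as a pair.

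Total counts were 25484294 to 32658148 per library. All 12 macrophage markers examined exceeded 1 TPM (the deposited level scaled by gene length) in each library, with a summed level of 21350 to 42067 TPM in wild-type against 24742 to 42814 TPM in Ts1Cje libraries. Of the 6 pluripotency markers, Sox2 and Esrrb had 0 counts in every library and the sum was 0 TPM in each wild-type and 1.41 to 2.26 TPM in Ts1Cje libraries. Sums were 0.0776 to 26.7 TPM for erythroid markers, 1.25 to 5.30 TPM for 8 neutrophil and mast cell markers, 5.14 to 20.4 TPM for 5 endothelial markers and 5.99 to 30.2 TPM for 6 mesenchymal markers. Ly6g, Mcpt8 and Emcn had 0 counts throughout. On the first principal component, wild-type replicate 1 lay at -88.2, wild-type replicate 2 at -18.7 and the other 4 libraries between 11.3 and 38.7. In bulk RNA, fewer cells of a kind and less RNA per cell cannot be told apart.

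Psmg1 is the member that lies in the extra segment. It sits at chr16:95979933-95990960 on the minus strand of mm10, with the end of Brwd1, on the same strand, 1131 bp before its start, and no other gene shares its exon bases in GENCODE M21. To show what stands before the genes that the results turn on, the 150 bases upstream of the RefSeq start (build GRCm38.p6, 5′ to 3′ on the strand of the gene) are given for Psmg1, for Psmd8 and Psmd12 of the 19S cap, for Psma7, the core gene that was lower in Ts1Cje, and for Psmb9 of the immunoproteasome. Capitals mark matches, on either strand, to CGGAAG, the core recognised by ETS factors, or to CCAAT, the NF-Y box.
Psmg1, chr16:95990961-95991110, minus: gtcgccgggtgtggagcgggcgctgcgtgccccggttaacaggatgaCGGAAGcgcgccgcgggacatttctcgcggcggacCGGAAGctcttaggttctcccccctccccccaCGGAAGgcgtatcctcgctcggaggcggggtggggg
Psmd8, chr7:29180674-29180823, minus: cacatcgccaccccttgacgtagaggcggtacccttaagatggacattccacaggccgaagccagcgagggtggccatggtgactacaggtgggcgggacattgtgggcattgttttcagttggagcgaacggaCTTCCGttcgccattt
Psmd12, chr11:107479378-107479527, plus: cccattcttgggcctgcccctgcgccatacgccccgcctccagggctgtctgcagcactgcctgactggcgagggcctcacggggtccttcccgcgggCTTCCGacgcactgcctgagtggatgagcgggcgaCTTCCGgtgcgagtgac
Psma7, chr2:180042465-180042614, minus: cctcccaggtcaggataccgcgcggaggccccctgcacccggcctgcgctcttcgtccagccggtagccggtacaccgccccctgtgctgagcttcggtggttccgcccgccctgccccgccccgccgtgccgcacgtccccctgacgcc
Psmb9, chr17:34187331-34187480, minus: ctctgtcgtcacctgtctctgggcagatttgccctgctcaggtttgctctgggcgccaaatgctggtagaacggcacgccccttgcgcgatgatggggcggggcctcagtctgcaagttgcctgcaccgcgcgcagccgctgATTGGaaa

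Within the 250 bases before the start, CGGAAG or its complement stood before 12 of the 14 19S cap genes that have a promoter in the table, 4 of 12 core genes and 0 of 6 genes of the immunoproteasome group (the 5 genes of the rule and Psme2b, a copy of Psme2). Over all members it stood before 20 of 41 genes. These included 2 of 2 other activators (Psme3 and Psme4), 1 of 3 chaperone genes of the core and 0 of 3 of the cap. Counted by promoter, 21 of 44 member promoters held it (47.7%). Among all 32851 promoters of the same length 13.6% held it, and among the 12568 promoters of genes tested here 24.9% did. The 12 cap genes were Psmc1, Psmc2, Psmc6, Psmd1, Psmd2, Psmd4, Psmd6, Psmd8, Psmd11, Psmd12, Psmd13 and Psmd14; Psmg1 held it 3 times. This motif was chosen after the sequences had been seen. The 3 other motifs had been chosen before it. CCAAT stood before 15 of 41 member genes, against 33.9% of all promoters and 35.5% of those of genes tested. By role these were 7 of 12 core genes, 4 of 14 cap genes and 1 of 6 immunoproteasome genes, among others. The antioxidant response element core TGACNNNGC, where NRF1 and NRF2 bind, stood before 5 of 41 (Psmb5, Psmb6, Psmc6, Psmd9 and Psmd12), against 10.2% and 11.8%. The core of interferon response elements (GAAA, any 2 bases, GAAA) stood before 3 of 41 (Psmb3, Psmd4 and Psmd9), against 2.98% and 2.75%. A match describes letters in a window and is not a measured binding site.

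Psmg1 had a 1.55-fold higher mean in the Ts1Cje macrophages. Its level was 10.80, 20.49 and 16.01 CPM (counts scaled to library size with TMM factors) in wild-type against 24.41, 25.14 and 23.97 CPM in Ts1Cje. The groups did not overlap, and the wild-type libraries were spread far more widely than the Ts1Cje libraries. Means were 15.8 ± 4.85 and 24.5 ± 0.589 CPM (SD, n = 3). The log2 fold change was 0.64 ± 0.25 (SE). It did not pass over all genes tested (adjusted p = 0.792, edgeR quasi-likelihood with Benjamini-Hochberg), and the exact two-sided permutation test of its log2 CPM gave p = 0.1, the smallest that 3 libraries against 3 can give. The segment was defined by coordinate from the end of Sod1 to the end of Zbtb21. Among its 49 tested coding genes, 45 had a positive log2 fold change, beside 49.2% of all genes tested. Without overlap in CPM 31 were higher, beside 6.38% of all genes. The median was 0.65 and Psmg1 was rank 26. Without wild-type replicate 1, which had the lowest level, the log2 fold change was 0.42.

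Its partner Psmg2, on chromosome 18 and outside the segment, was at 18.5, 28.2 and 24.9 CPM in wild-type against 24.6, 25.2 and 23.8 CPM in Ts1Cje. The groups overlapped, with a log2 fold change of 0.04 ± 0.20 (SE). Both genes were lowest in wild-type replicate 1 and highest in wild-type replicate 2 of that group. Among the libraries of each genotype, the ratio of their counts within a library varied less than either level. That ratio was 0.584, 0.728 and 0.643 in wild-type against 0.990, 0.997 and 1.01 in Ts1Cje libraries. It was alike in the 3 Ts1Cje libraries and lower in each wild-type library. The difference was 0.62 on the log2 scale (exact two-sided permutation p = 0.1, the smallest possible, and 0.4 when adjusted over the 4 ratios tested). Counts are not scaled by gene length, so the count ratio does not compare the levels of the 2 genes. In TPM the ratio was 0.756, 0.941 and 0.831 in wild-type against 1.28, 1.29 and 1.30 in Ts1Cje. The other pair of core chaperones did not differ beyond the spread between libraries. Psmg3 had -0.05 ± 0.27 and Psmg4 0.09 ± 0.31 (SE), at 5.03 to 7.71 CPM and 5.29 to 10.1 CPM over the 6 libraries. Psmg3 shares 280 exon bases with the coding gene Gm26938 on the same strand. Pomp, which completes the core after the Psmg proteins, had 0.11 ± 0.14 (SE).

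**Figure D1:**
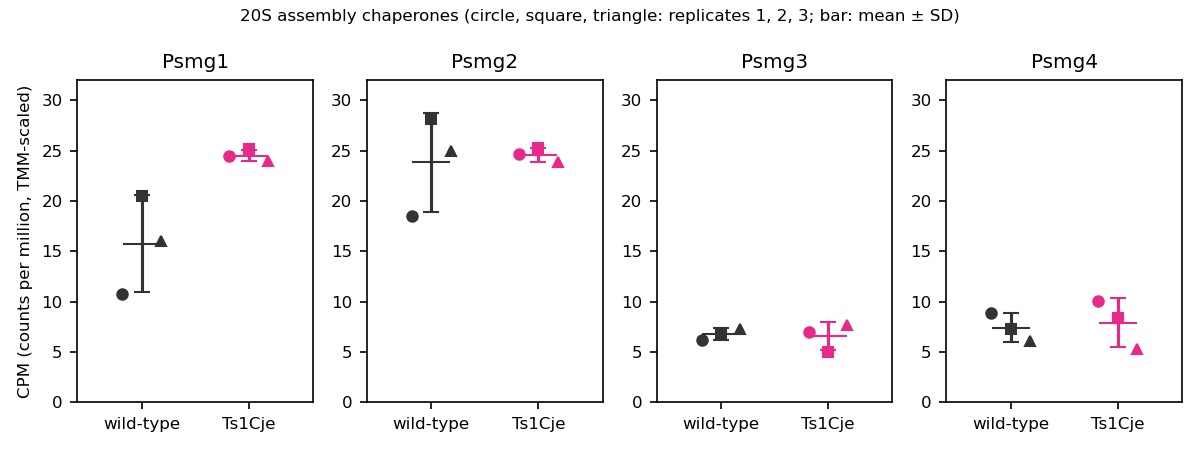
Level of the 4 chaperones of 20S assembly in each library (vertical axis, CPM; horizontal axis, genotype; symbols, replicates; bars, mean ± SD, n = 3). Psmg1 is at 24.0 to 25.1 CPM in Ts1Cje and 10.8 to 20.5 CPM in wild-type libraries, while the groups overlap for Psmg2, Psmg3 and Psmg4.

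Over all members, 43 of the 47 tested had a positive log2 fold change, against 49.2% of all genes tested. The median was 0.21, and that of all genes was -0.01. By edgeR 0 of the 47 passed over all genes tested, where 0.00724% of genes did (1 of 13821), and DESeq2 and limma-voom called 0 of them as well. At an unadjusted p under 0.05 there were 6 higher (Psmg1, Psmc3, Psmd8, Psmd11, Psmd12 and Psmd14) and 1 lower (Psma7), beside 2.99% and 2.80% of all genes. In CPM the groups did not overlap for 11 higher and 1 lower, beside 6.38% and 5.72%. The members lay on 16 chromosomes, 10 of them on chromosome 11. Psma8, a testis form of an alpha subunit, had counts of 4, 33 and 0 in wild-type against 0, 8 and 0 in Ts1Cje replicates, and Psmb11, the beta subunit of thymus, had 0 counts in all 6; these 2 were not tested.

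**Figure D2:**
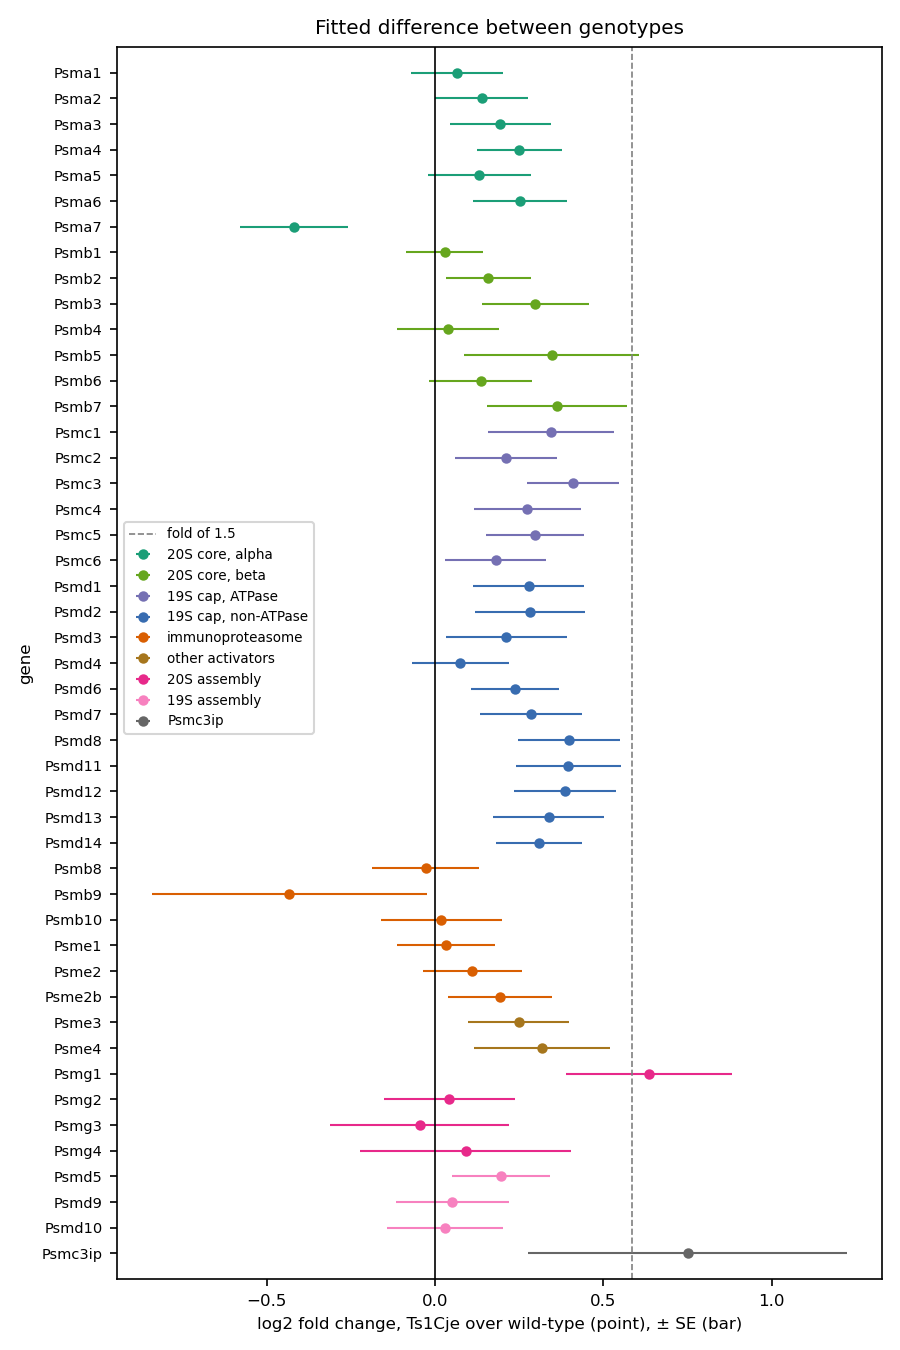
Log2 fold change of Ts1Cje over wild-type for the 47 tested members (points) with SE (bars), ordered and coloured by role; the dashed line marks a fold of 1.5. All 17 genes of the 19S cap lie right of 0, Psmg1 lies close to the dashed line and Psma7 and Psmb9 lie furthest left.

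The 19S cap had the same sign throughout, although none of its genes passed over all genes tested. All 17 had a positive log2 fold change, from 0.08 to 0.41 with a median of 0.28, a fold of 1.22. In CPM the groups did not overlap for 7 of the 17 (Psmc3, Psmc5, Psmd6, Psmd8, Psmd11, Psmd12 and Psmd14), all with Ts1Cje higher, beside 6.38% of all genes. In TPM the groups of Psmc5, Psmd6 and Psmd12 overlapped. Wild-type replicate 3 was at 265, 134 and 161 TPM for these genes, against 248, 132 and 156 TPM in Ts1Cje replicate 3. Of all genes 49.2% had a positive value. The 6 ATPases had a median of 0.29 and the 11 other cap genes a median of 0.28.

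Among the ATPases, Psmc3 had the smallest p. It was at 152, 175 and 188 CPM in wild-type against 218, 244 and 223 CPM in Ts1Cje, so that the groups did not overlap, with a log2 fold change of 0.41 ± 0.14 (SE; unadjusted p = 0.0188 and adjusted p = 0.792 by edgeR). Psmc3 shares 215 exon bases with Slc39a13 on the opposite strand, and the sources used here do not state whether reads were counted by strand. Psmc5 was at 90.6, 107 and 121 CPM in wild-type against 138, 128 and 125 CPM in Ts1Cje libraries, again without overlap, at 0.30 ± 0.15 (SE). Psmc1, the ATPase with the highest level per length (a mean of 284 TPM), had 0.34 ± 0.19 (SE), and Psmc2, with the lowest (81.3 TPM), had 0.21 ± 0.15 (SE). The groups of these last 2 overlapped because wild-type replicate 3 reached the Ts1Cje range. Psmc1 was at 0.18 without wild-type replicate 1, Psmc2 at 0.09 without wild-type replicate 2, and they were at 0.51 and 0.34 without wild-type replicate 3.

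Of the other cap genes, the lid subunit Psmd8 was at 268, 301 and 330 CPM in wild-type against 357, 440 and 388 CPM in Ts1Cje, with 0.40 ± 0.15 (SE). Psmd11, a lid subunit that contacts the core, was at 43.7, 52.2 and 59.3 CPM against 64.9, 72.2 and 67.2 CPM, with 0.40 ± 0.16 (SE). In each of these 2 genes the groups did not overlap, wild-type replicate 3 was the highest of its group and Ts1Cje replicate 2 the highest overall. Psmd12, a further lid subunit, had 0.39 ± 0.15 and Psmd14, the deubiquitinase of the lid, 0.31 ± 0.13 (SE). Both were without overlap in CPM, but Psmd12 overlapped in TPM. Psmd4, a ubiquitin receptor, had the smallest value of the cap at 0.08 ± 0.14 (SE). Psmd2, a scaffold of the cap, lies on chromosome 16 (20651652 to 20663414), outside the extra segment, and had 0.28 ± 0.16 (SE), equal to the cap median. Psmc1, on chromosome 12, to which the segment is attached, had 0.34, and Psma6 and Psma3 of the core, on the same chromosome, had 0.25 and 0.19.

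The libraries within the wild-type group differed by as much as the genotypes did. The median over the 17 cap genes, relative to the wild-type mean of each gene, was -0.15, -0.08 and 0.23 in wild-type against 0.33, 0.34 and 0.25 in Ts1Cje. Only wild-type replicates 1 and 2 were low, and wild-type replicate 3 was just below the lowest Ts1Cje library. Of the 39 tested members outside the immunoproteasome group, Psmg1 and Psmc3ip, 6, 13 and 36 were above their wild-type mean in wild-type replicates 1 to 3, against 35, 36 and 34 in Ts1Cje. The order of the wild-type libraries was that of the first principal component of all genes, as was that of the summed erythroid markers (0.291, 9.50 and 26.7 TPM in wild-type, 10.9, 3.02 and 0.0776 TPM in Ts1Cje). The summed endothelial markers had that order too (5.14, 9.40 and 17.7 TPM in wild-type, 20.4, 14.7 and 9.49 TPM in Ts1Cje). The mitochondrial share of counts was 1.32% in wild-type replicate 1 and 0.885% to 0.972% in the other libraries. The summed macrophage markers had the opposite order in wild-type (42067, 26472 and 21350 TPM) and were 24742, 30466 and 42814 TPM in Ts1Cje. Much of that difference lay in Lyz2 alone. It was at 23025.2, 10200.6 and 5332.97 TPM in wild-type against 7637.52, 14388.5 and 24365.8 TPM in Ts1Cje. Fcer1g, Itgam, Spi1 and Adgre1 were higher in wild-type replicate 3 than in wild-type replicate 1, and the other macrophage markers were lower. The part of these marker sums and of the mitochondrial share in the result was not tested. Cap genes higher at an unadjusted p under 0.05 numbered 5 with all libraries (2.99% of all genes). They numbered 14 without wild-type replicate 3, where 9.02% of all genes were. They numbered 0 without wild-type replicate 1 (2.65% of all genes) and 0 without Ts1Cje replicate 2 (1.76%). They numbered 1 without wild-type replicate 2 (1.98%), 1 without Ts1Cje replicate 3 (1.91%) and 2 without Ts1Cje replicate 1 (2.29%). With the replicate number as a block there was 1 (2.81%). By limma on log2(TPM + 1) there were 2, and with upper-quartile factors or with no filter 4. In these 3 fits 5.99%, 5.95% and 5.56% of all genes had an unadjusted p under 0.05 in either direction. Positive values numbered 16 without wild-type replicate 2 and 17 without any other library. The median of the cap ranged from 0.23 without wild-type replicate 1 to 0.42 without wild-type replicate 3.

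**Figure D3:**
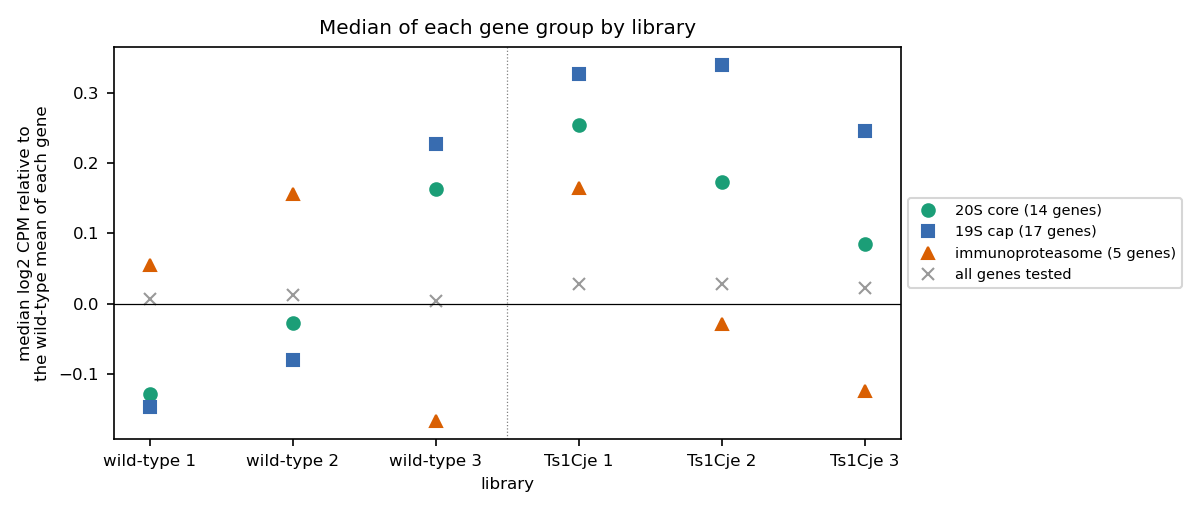
Median log2 CPM of 3 gene groups and of all tested genes in each library, relative to the wild-type mean of each gene (vertical axis, log2; horizontal axis, library). The 19S cap is at -0.15 and -0.08 in wild-type replicates 1 and 2 and between 0.23 and 0.34 in the other 4 libraries, while the immunoproteasome genes are lowest in wild-type replicate 3.

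In the 20S core 13 of 14 tested genes had a positive log2 fold change, beside 49.2% of all genes. The median of the core was 0.15, which was 0.09 without wild-type replicate 1 and 0.26 without wild-type replicate 3. The levels per length differed widely between subunits that the barrel holds in equal number. Psmb6 had the highest mean (703 TPM) and Psmb7 the lowest (29.0 TPM). In CPM Ts1Cje was higher without overlap for 3 of the 14, beside 6.38% of all genes. These were Psma4, at 0.25 ± 0.13, Psma6, at 0.25 ± 0.14, and Psmb3, at 0.30 ± 0.16 (SE). In TPM the groups of all 3 genes overlapped. Wild-type replicate 3 was at 143, 300 and 135 TPM for them, against 136, 285 and 124 TPM in Ts1Cje replicate 3. Summed over the 16 core genes, the level was 2462, 2663 and 3159 TPM in wild-type against 3288, 3170 and 2650 TPM in Ts1Cje. These sums overlapped, as did those of the 17 cap genes, at 2232, 2388 and 2923 TPM against 3190, 3295 and 2807 TPM.

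Psma7, an alpha subunit, went the other way. It was at 168, 187 and 168 CPM in wild-type against 154, 108 and 129 CPM in Ts1Cje. Every Ts1Cje library lay below every wild-type library, by the least in Ts1Cje replicate 1. The log2 fold change was -0.42 ± 0.16 (SE; unadjusted p = 0.0322 and adjusted p = 0.792 by edgeR), against 0.07 to 0.25 for the 6 other tested alpha subunits. Psma7 shares no exon bases with another gene in GENCODE M21.

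The 3 cutting subunits of the constitutive core did not pass. Psmb5, with the chymotrypsin-like activity, was at 40.9, 42.0 and 77.6 CPM in wild-type against 64.6, 74.1 and 65.4 CPM in Ts1Cje, with 0.35 ± 0.26 (SE). Psmb7, with the trypsin-like activity, was at 24.0, 25.1 and 37.9 CPM against 38.3, 38.0 and 35.5 CPM, with 0.36 ± 0.21 (SE). In both genes wild-type replicates 1 and 2 were low and wild-type replicate 3 was within or above the Ts1Cje range. Psmb5 was at 0.18 and Psmb7 at 0.23 without wild-type replicate 1, and they were at 0.72 and 0.61 without wild-type replicate 3. Psmb6, with the caspase-like activity, had 0.14 ± 0.15 (SE). Psmb7 shares 405 exon bases with Nek6, and Psma4 114 with AY074887, each on the opposite strand. Psmb5 shares 109 exon bases with the microRNA gene Mir686 on the same strand.

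**Figure D4:**
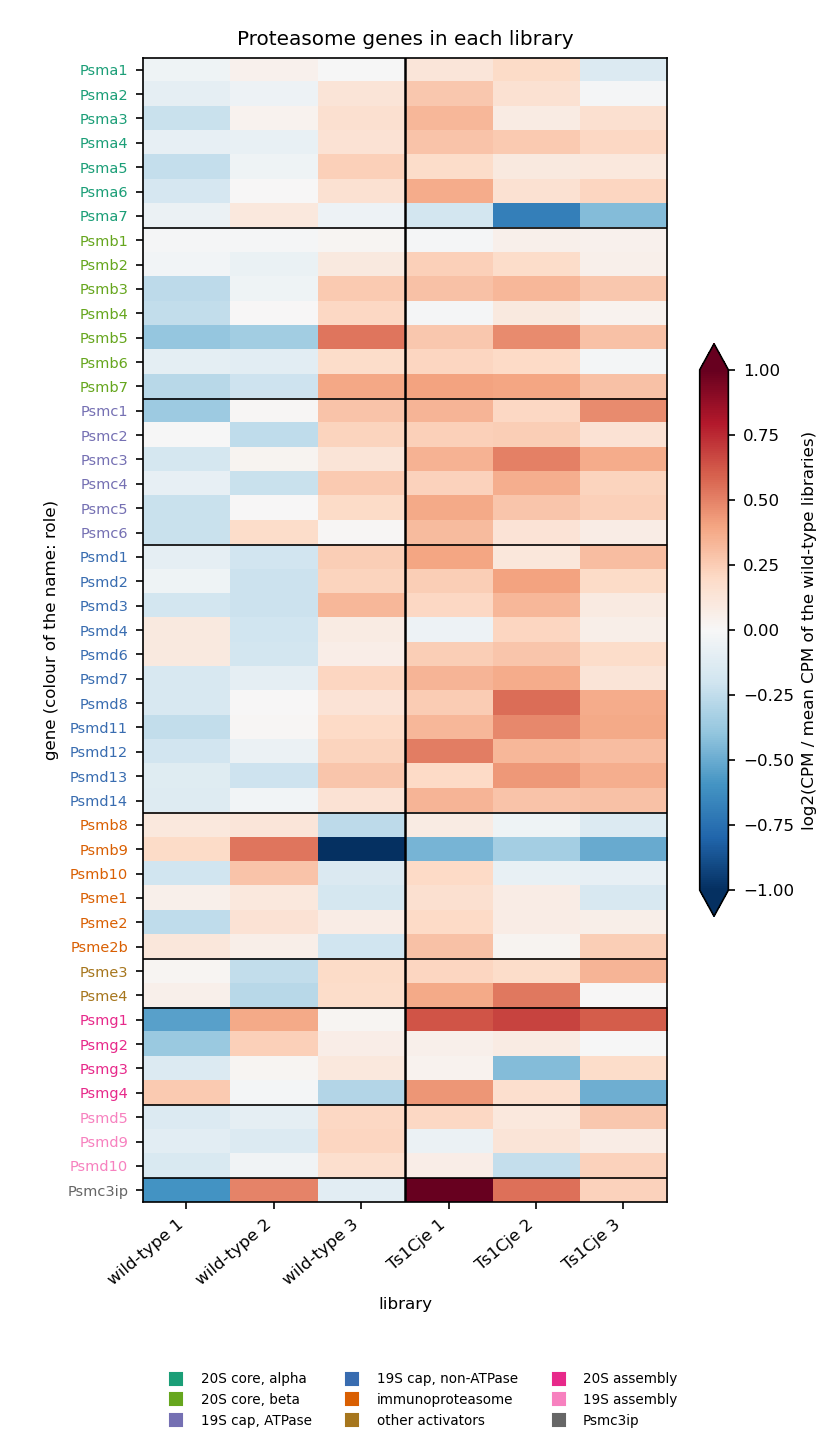
Log2 of CPM over the mean CPM of the wild-type libraries for each tested member (rows, grouped and coloured by role) in each library (columns); red is above and blue below the wild-type mean, and the scale saturates at 1 and -1. The cap and most core genes are red in wild-type replicate 3 and in the Ts1Cje libraries, Psma7 is blue in the Ts1Cje libraries and Psmb9 is darkest blue in wild-type replicate 3.

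The immunoproteasome genes had no common sign. Psmb8, Psmb9, Psmb10, Psme1 and Psme2 had a median of 0.02 (-0.08 without Ts1Cje replicate 1 and 0.08 without wild-type replicate 2), with 3 positive and 2 negative, and 0 without overlap or with an unadjusted p under 0.05. Psmb9 was at 32.7, 41.5 and 11.6 CPM in wild-type against 20.7, 22.6 and 20.2 CPM in Ts1Cje. The Ts1Cje libraries were alike and lay inside the wild-type range, whose lowest library was wild-type replicate 3. The log2 fold change was -0.43 ± 0.41 (SE). It was -0.80 without wild-type replicate 3 and -0.07 without wild-type replicate 2. Psmb9 shares 212 exon bases with Tap1 on the opposite strand, so that reads of the pair could be mixed. Tap1, a chain of the peptide transporter, was at 63.3, 97.9 and 31.2 CPM in wild-type against 56.3, 47.9 and 39.5 CPM in Ts1Cje libraries, with wild-type replicates 2 and 3 again the highest and the lowest.

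Psmb8 was at 54.5, 55.2 and 42.2 CPM in wild-type against 53.7, 49.3 and 46.1 CPM in Ts1Cje, with -0.03 ± 0.16 (SE). Psmb10 was at 47.3, 66.3 and 49.3 CPM against 62.2, 51.6 and 51.2 CPM, with 0.02 ± 0.18 (SE). In both genes the groups overlapped, and Psmb8 shares 498 exon bases with the antisense RNA Gm20496. The activator subunits Psme1 and Psme2 had 0.03 ± 0.15 and 0.11 ± 0.15 (SE). Psme2b, counted apart, had 0.19 ± 0.15 (SE), but its transcript is 99.4% identical to that of Psme2 over 794 bases, so reads can be split between them and both values are uncertain.

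Within a library the immune subunits were set against the constitutive subunits that they replace. The count of Psmb8 was 1.33, 1.31 and 0.544 times that of Psmb5 in wild-type against 0.832, 0.664 and 0.705 times in Ts1Cje. Psmb9 was at 0.0834, 0.107 and 0.0245 times the count of Psmb6 in wild-type against 0.0426, 0.0472 and 0.0489 times in Ts1Cje libraries. Psmb10 was at 1.98, 2.64 and 1.30 times the count of Psmb7 against 1.63, 1.36 and 1.44 times. In all 3 pairs the Ts1Cje libraries lay inside the wild-type range, wild-type replicates 1 and 2 were higher than every Ts1Cje library and wild-type replicate 3 was lower. Exact two-sided permutation p was 0.4, 0.6 and 0.4, and 0.533, 0.6 and 0.533 when adjusted over the 4 ratios. Counts are not scaled by gene length, so the size of a count ratio does not compare the levels of the subunits. In TPM Psmb8 was at 0.355, 0.349 and 0.145 times Psmb5 in wild-type against 0.221, 0.177 and 0.187 times in Ts1Cje. Psmb9 was at 0.0126 to 0.0545 times Psmb6 and Psmb10 at 2.61 to 5.30 times Psmb7 over the libraries in TPM.

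**Figure D5:**
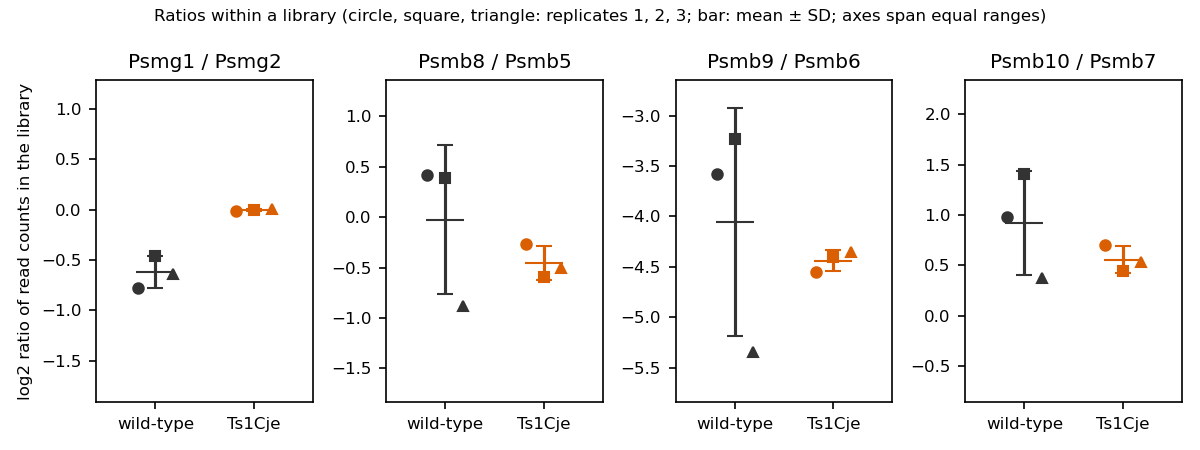
Log2 ratio of read counts of 2 genes in each library (vertical axis; horizontal axis, genotype; symbols, replicates; bars, mean ± SD, n = 3). For Psmg1 over Psmg2 each Ts1Cje library lies above each wild-type library, while for the 3 immune over constitutive pairs the Ts1Cje libraries lie between wild-type replicate 3 and the other wild-type libraries.

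The activators Psme3, of the nucleus, and Psme4, which favours acetylated histones, had 0.25 ± 0.15 and 0.32 ± 0.20 (SE). Chaperones of the 19S base had 0.20 ± 0.15 for Psmd5, 0.05 ± 0.17 for Psmd9 and 0.03 ± 0.17 for Psmd10 (SE). Psmd9 shares 1849 exon bases with the opposite-strand RNA Gm26745. Psmc3ip is a member by name alone, since it encodes a protein of meiotic recombination. It had 29, 67 and 44 counts in wild-type against 145, 70 and 61 in Ts1Cje replicates, at 0.75 ± 0.47 (SE), and shares 385 exon bases with Mlx. Ts1Cje replicate 1 was the highest, and the groups overlapped in CPM. Without that library the value was 0.40.

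Genes that work with the proteasome were mixed in sign. Of 13 bound factors, 9 were positive and 4 negative (median 0.09), with 2 higher and 0 lower at an unadjusted p under 0.05, beside 2.99% and 2.80% of all genes. Ube3c, a ubiquitin ligase on the proteasome, was at 12.26, 18.95 and 22.28 CPM in wild-type against 36.12, 32.88 and 28.74 CPM in Ts1Cje, with 0.87 ± 0.24 (SE). Zfand2a, a stress-induced proteasome binder, was at 83.8, 85.6 and 85.8 CPM against 104, 108 and 115 CPM, with 0.36 ± 0.12 (SE). The groups of both genes did not overlap, and neither passed over all genes tested (adjusted p = 0.792 by edgeR). Akirin2, which brings proteasomes into the nucleus, had 0.69 ± 0.42 and Uchl5, a deubiquitinase of the cap, 0.33 ± 0.17 (SE). Both depended on the wild-type libraries. Akirin2 was at 0.35 and Uchl5 at 0.19 without wild-type replicate 1, and they were at 1.33 and 0.50 without wild-type replicate 3. Adrm1, a ubiquitin receptor, had -0.13 ± 0.17 and Psmf1, an inhibitor of the core, -0.03 ± 0.13 (SE).

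Of 14 genes that make or deliver ubiquitin 9 were positive (median 0.12), with 1 higher and 0 lower at an unadjusted p under 0.05, again beside 2.99% and 2.80% of all genes. That was Rad23b, a carrier of ubiquitin-tagged proteins, at 57.7, 64.7 and 69.8 CPM in wild-type against 79.9, 83.7 and 81.5 CPM in Ts1Cje libraries, with 0.35 ± 0.13 (SE). Nploc4, a cofactor of the unfolding enzyme Vcp, had 0.30 ± 0.16, the ubiquitin ligase Ube4b 0.20 ± 0.17 and Uba1, the main ubiquitin-activating enzyme, 0.19 ± 0.17 (SE). Without wild-type replicate 1 Ube4b was at 0.05 and Uba1 at 0.06, and without wild-type replicate 2 Nploc4 was at 0.18. Without wild-type replicate 3 these 3 genes were at 0.36, 0.35 and 0.46. Of 9 regulators 4 were positive and 5 negative (median -0.16), with 0 at an unadjusted p under 0.05. Nfe2l1 (NRF1), the factor that raises proteasome genes when proteolysis is short, had 0.15 ± 0.16, Nfe2l2 (NRF2) 0.19 ± 0.12 and Ngly1, which activates NRF1, 0.30 ± 0.18 (SE). Of the NF-Y subunits Nfya had -0.43 ± 0.19, Nfyb -0.33 ± 0.19 and Nfyc 0.14 ± 0.23 (SE). Of these 9 regulators, groups did not overlap for 2 higher (Ngly1 and Nfe2l2) and 2 lower (Nfya and Nfyb), beside 6.38% and 5.72% of all genes. Irf1, an inducer of immunoproteasome genes, had -0.58 ± 0.34 (SE), and it was at -0.23 without wild-type replicate 1 and -0.88 without wild-type replicate 3. Ngly1 was at 0.15 without Ts1Cje replicate 3, and Nfe2l1 at 0.07 without Ts1Cje replicate 2 and 0.28 without Ts1Cje replicate 1.

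Of 8 genes that load peptides on MHC class I 3 were positive and 5 negative (median -0.18), with 0 at an unadjusted p under 0.05. Calr, a chaperone of class I, had 0.57 ± 0.28, Tap1 -0.42 ± 0.37, Tap2 -0.21 ± 0.21 and Tapbp -0.24 ± 0.24 (SE). Without wild-type replicate 1 Calr was at 0.35, Tap2 at -0.06 and Tapbp at 0.01, and without wild-type replicate 2 Tap1 was at 0.01. Without wild-type replicate 3 Calr was at 0.91, Tap1 at -0.75, Tap2 at -0.39 and Tapbp at -0.43. Library medians of these 8 genes were 0.11, 0.03 and -0.35 in wild-type against -0.07, -0.07 and -0.09 in Ts1Cje, lowest in wild-type replicate 3 as for the immunoproteasome genes.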

How the data were processed

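Sequencing libraries of total RNA came from the SMART-seq HT Plus kit, per the labels' protocols. Per the submitters' processing notes, the tools included HISAT2 2.1.0, featureCounts 1.6.3, Trimmomatic 0.38 and FastQC 0.11.7, with build mm10. The authors deposited raw counts per gene and TPM, each with 1 column per library; the handling of strand and of multiply placed reads was not stated there. Coordinates of all 49 members equalled those of GENCODE M21.

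Genotypes were compared on the deposited counts with edgeR 4.0.16 in R 4.3.3 (quasi-likelihood, TMM, filterByExpr at min.count 10 and min.total.count 15, genotype only), with Benjamini-Hochberg adjustment over 13821 genes and a threshold of 0.05. SE is the log2 fold change divided by the root of F. The 18 alternatives covered other filters, TMM without chromosome 16, upper-quartile or RLE factors, DESeq2 1.42.0, limma 3.58.1 with voom or on log2(TPM + 1 or 0.1), coding genes alone, leaving out each library, and a block for the replicate number. The edgeR step was tested on simulated data with folds of 1.5, 2 and 4. It missed most genes set at folds of 1.5 and 2, and 6 calls were false among the 13821 genes simulated. The changed genes were drawn at random from all genes tested, so recovery was not measured for the members. Smaller folds, which most members had, were not tested.

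Named were the Psmg genes, the cutting and immune subunits, in each other role the 2 smallest p and the extremes of TPM, up to 4 genes per partner list, and Nfe2l1, Nfe2l2, Pomp, Adrm1 and Psmf1. Others were chosen after their values were seen: Psmd2, Psmd4, Psmd6, Psmd12, Psmd14 and Nfyc, and those listed for a motif. Members without enough counts are named with their counts, and 1 marker gene is not reported here. The members and lists were chosen with earlier results of these data known. RefSeq promoters of 41 members were searched, leaving Psma8, Psmb1, Psmb2, Psmb7, Psmc3, Psmd3, Psmd7 and Psmg2. Libraries of a genotype differed by far more than sampling noise (chi-square per degree of freedom of 61.4 or more).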

Additional observations from a re-analysis of the deposited data

How the results depend on the processing

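No member passed under any of the 18 alternatives, and the medians of the cap, the core, the immunoproteasome and the other members moved by less than the spread between libraries in each. The number of genes called in the whole table was 1, and it was 3 with no filter, 0 with the stricter filter, 56 with DESeq2 and 1 to 6 without single libraries, where wild-type replicate 3 gave the 6. Same-numbered libraries did not deviate together (correlations of -0.176, -0.0451 and -0.0612), so the numbers were not taken as pairs. With the replicate number as a block 0 genes passed, Psmg1 had 0.68, the cap median was 0.29, the core median 0.15, the immunoproteasome median 0.03, that of the other members 0.24, and 1 cap gene was higher at an unadjusted p under 0.05. Psmg1 ranged from 0.42 without wild-type replicate 1 to 0.86 without wild-type replicate 2, and the log2 ratio to Psmg2 from 0.54 to 0.70.

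With upper-quartile factors, which moved the median of all genes to -0.04, Psmb10 was at -0.016, Psme1 at -0.00246 and Psmd10 at -0.00383. Some named genes changed sign when a single library was left out, mostly genes near 0 but also Tap1 and Tapbp. Their ranges were -0.12 to 0.17 for Psmg2, -0.18 to 0.12 for Psmg3, -0.12 to 0.31 for Psmg4, -0.14 to 0.030 for Psmb8, -0.080 to 0.18 for Psmb10, -0.043 to 0.11 for Psme1, -0.010 to 0.18 for Psme2, -0.020 to 0.17 for Psmd9, -0.087 to 0.15 for Psmd10, -0.75 to 0.011 for Tap1 and -0.43 to 0.010 for Tapbp. The cause was not tested. Depth bears most on shallow genes such as Psmc3ip, with 29 to 145 counts per library.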
